A study of Homo sapiens with 30 samples.

Results

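The comparison described here is that of SH-EP cells carrying MYCN with both T58A and S62A (T58A S62A, the double mutant) against SH-EP cells carrying MYCN with S62A alone, both in DMSO. It took the 3 DMSO libraries of each line, 6 of the 30 RNA-Seq libraries of the study, as named in the sample labels, and so asked what T58A was accompanied by when serine 62 was already alanine. SH-EP is an established human neuroblastoma (NB) cell line of mesenchymal identity with no MYCN amplification. From it, 4 lines were made with a retroviral vector whose exogenous promoter drives MYCN, either WT or with T58A, with S62A, or with both substitutions, while the endogenous MYC gene was kept. For 6 hours all 5 lines received DMSO or, in the other libraries, CYC065, an inhibitor of CDK2 and CDK9, at 1 μM, and 3 libraries were made per group. Whether a line was a pool or 1 clone is not given in the sources used here, and neither is whether the 3 libraries came from separate cultures, so that p-values measure the spread between libraries, which may be technical.

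MYCN is a transcription factor that pairs with MAX and binds the E-box CACGTG. Its turnover is set by a pair of phosphorylation sites. Phosphorylation of serine 62 by ERK or cyclin-dependent kinases stabilizes the protein and primes threonine 58 for GSK3, after which the phosphatase PP2A acts on serine 62 and the ubiquitin ligase FBXW7 recognizes phosphorylated threonine 58. An alanine at position 58 removes the site FBXW7 needs, and an alanine at position 62 removes the priming site. The reference codons for the substituted residues lie in a coding exon of MYCN, at chr2:16082358-16082360 for codon 58 and chr2:16082370-16082372 for codon 62 (GRCh37, plus strand). The substitutions themselves are in the retroviral transgene, whose codons are not given in the sources used here. The reference is shown because residues 58 and 62 are what distinguishes the MYCN lines by design. Codons 50 to 70 of the reference (chr2:16082334-16082396) follow, with codons 58 (threonine) and 62 (serine) in capitals. Only codon 58 differed by design between the lines compared.
MYCN codons: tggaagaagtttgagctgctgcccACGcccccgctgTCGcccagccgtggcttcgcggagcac

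The promoters of 3 genes that the results turn on are shown next, from RefSeq (GRCh38.p14), from 250 bases before to 50 bases after the start. LCP1 and CGA had the largest differences, higher and lower, among the protein coding genes named by rule. The rule kept called genes whose lines did not overlap and whose higher line was at 5 FPKM or more. Of these it took the 15 higher and 15 lower genes with the largest change. DUSP23 was taken from the higher genes whose promoter held the E-box, not all of which were ranked. Capitals mark an E-box (CACGTG), a cAMP response element (CRE, TGACGTCA), or an AP-1 site (TGANTCA), searched on both strands. Neither of the last pair of motifs contains the other.
LCP1, chr13:46182128-46182427, minus strand: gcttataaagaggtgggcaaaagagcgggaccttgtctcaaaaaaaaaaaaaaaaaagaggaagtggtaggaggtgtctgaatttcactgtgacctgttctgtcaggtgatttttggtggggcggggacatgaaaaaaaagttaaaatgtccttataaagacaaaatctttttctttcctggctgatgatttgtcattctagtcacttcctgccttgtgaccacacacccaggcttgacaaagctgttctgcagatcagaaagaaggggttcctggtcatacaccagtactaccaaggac
CGA, chr6:87095057-87095356, minus strand: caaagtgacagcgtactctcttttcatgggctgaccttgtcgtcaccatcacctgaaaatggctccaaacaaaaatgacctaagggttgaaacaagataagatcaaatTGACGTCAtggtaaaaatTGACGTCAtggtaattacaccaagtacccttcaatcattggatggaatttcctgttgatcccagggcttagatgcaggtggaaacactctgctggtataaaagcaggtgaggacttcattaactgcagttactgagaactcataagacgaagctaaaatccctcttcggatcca
DUSP23, chr1:159780712-159781011, plus strand: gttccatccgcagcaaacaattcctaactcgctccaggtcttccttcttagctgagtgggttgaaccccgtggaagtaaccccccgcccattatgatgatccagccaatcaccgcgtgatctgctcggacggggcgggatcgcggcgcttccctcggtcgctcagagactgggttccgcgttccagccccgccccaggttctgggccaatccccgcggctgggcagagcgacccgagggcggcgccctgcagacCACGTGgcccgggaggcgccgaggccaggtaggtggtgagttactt

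The LCP1 window held none of the 3 motifs, that of CGA held 2 copies of the CRE, and that of DUSP23 held 1 E-box. A match in letters is a description of the window and not of binding.

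Levels are given in FPKM as deposited, which are fragments scaled to transcript length and library total, and differences as double mutant minus S62A on log2(FPKM + 0.1), which understates the change of low genes. Each level is thus a share of its library. Relative to the ERCC spike-ins, synthetic RNAs added by cell number, the RNA of the double mutant was higher, and scaling to the spike-ins moved the median difference over all tested genes from -0.00 to 1.09. More RNA per cell and a difference in the cells counted cannot be told apart here, and genes called lower by less than about that shift are higher with spike-in scaling. The share of genes at 0 was 42.1% to 45.6% over the 6 libraries, and the 10 most abundant genes held 5.34% to 5.55% of the FPKM in S62A and 6.00% to 7.14% in the double mutant. Read depth is not stored in FPKM. From genes at low values, depth was 0.536 to 1.00 times that of the first S62A library in column order, which was the deepest. Correlations of log2 levels were 0.931 to 0.949 within S62A, 0.926 to 0.928 within the double mutant, and 0.905 to 0.927 between them.

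A mean of 1 FPKM or more over all 30 libraries was required of a gene, which left 11575 to be tested. Of these, 3550 (30.7%) passed an adjusted p under 0.05 in limma. The called genes were 1778 higher (15.4% of those tested) and 1772 lower (15.3%) in the double mutant. Differences were mostly small. The median was 0.46 among the higher genes and -0.40 among the lower ones, 82.9% of tested genes differed by less than 0.5, and 249 higher and 162 lower genes differed by at least 2-fold. The 3 libraries of one line did not overlap with those of the other in 4630 genes (40%), of which 2302 (19.9%) were higher and 2328 (20.1%) lower. With only these 6 libraries in the fit, 1120 genes were higher and 1059 lower.

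The MYCN transgene itself differed. The gene MYCN lies on the plus strand of chromosome 2 at 16080672 to 16087129 (GRCh37), and its mRNA was at 5.08, 6.59, and 5.51 FPKM in S62A and at 15.7, 9.06, and 15.7 FPKM in the double mutant. Every double mutant library was above every S62A library, with means of 5.72 ± 0.778 and 13.5 ± 3.83 FPKM (SD, n = 3 each). The difference was 1.19 (SE 0.17, limma adjusted p = 6.29e-06), and an exact permutation test of the same 6 values, two-sided, gave p = 0.1, the smallest that 3 against 3 allows. WT MYCN was at 12.9 ± 1.09 FPKM, T58A at 8.52 ± 1.29, and parental SH-EP at 0. The S62A line thus had the lowest MYCN mRNA of the MYCN lines, and the substitution T58A and the level of MYCN mRNA cannot be told apart in the comparison. Endogenous MYC (chromosome 8, 128747680 to 128755197, plus strand) went the other way, from 1.85, 1.01, and 1.93 FPKM in S62A to 0.377, 0.494, and 0.635 FPKM in the double mutant, which did not overlap, with a difference of -1.47 (SE 0.17, limma adjusted p = 5.04e-07). MYC was at a mean of 4.94 FPKM in parental SH-EP, 1.04 in WT, and 0.446 in T58A, and in CYC065 its difference was -0.32 (limma adjusted p = 0.145).

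Among 17 tested members of the MYC network, the family and its partners, 7 were higher (41.2%) and 2 lower (11.8%), with a median of 0.20, and 4 were lower with GC centring, a setting described with base composition at the end. The shares stand against 15.4% and 15.3% of all tested genes, and each list that follows gives its own shares in the same way. The E-box binding antagonists of the MAX network were divided. MXI1 rose from 2.81, 3.4, and 2.64 FPKM to 6.64, 7.17, and 5.55 FPKM (difference 1.10), in a stretch of 10q whose genes were higher together, and MXD3 by 0.79, whereas MXD1 fell by 0.87. MAX, the obligate partner, was at 24.4, 27, and 24.8 FPKM against 29.1, 34.9, and 26.5 FPKM, which overlap. Its difference of 0.24 (limma adjusted p = 0.037) lost its call without the first or the third S62A library (0.21 and 0.22) or the first or the second double mutant library (0.26 and 0.13). Of 27 genes that phosphorylate, dephosphorylate, or degrade MYC proteins through the T58 and S62 sites, 3 were higher (11.1%) and 4 lower (14.8%), with a median of -0.02, which is near the background. Without the third S62A library 1 was higher, and with only the 6 libraries in the fit the counts were 1 and 2. The kinase AURKA, which binds MYCN and protects it from FBXW7, fell from 139, 135, and 134 FPKM to 80.2, 74, and 73.2 FPKM (-0.84), inside a stretch of 20q whose genes were lower together. GSK3A was higher by 0.30, but not with only the 6 libraries in the fit. The differences of GSK3B (-0.15, limma adjusted p = 0.304) and FBXW7 (0.33, limma adjusted p = 0.0568) did not pass the threshold. FBXW7 passed it without the first S62A library (0.43). In CYC065 both were higher, FBXW7 by 0.78 (limma adjusted p = 4.6e-05) and GSK3B by 0.32 (limma adjusted p = 0.0176). Of the 27 genes, 9 were higher and 5 lower in CYC065, against 19% and 20.3% of all tested genes. FBXW7 lies in a stretch of 4q whose genes were higher together.

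Genes often used to follow MYC activity differed little relative to library totals. ODC1, the first enzyme of polyamine synthesis, was at 294, 302, and 318 FPKM against 311, 324, and 302 FPKM (difference 0.04). The nucleolar protein NCL was at 647, 603, and 698 FPKM against 613, 659, and 619 FPKM (-0.04). For both genes the libraries of the lines overlapped. Of 30 ribosome biogenesis genes, 6 were higher (20%) and 4 lower (13.3%), with a median of 0.10. GC centring gave 10 and 2, and a fit of only the 6 libraries gave 4 and 1. Without the first S62A library these counts were 3 and 1, and without the third S62A library or the first double mutant library 1 was lower. RRP12, a ribosome export factor, rose from 31.3, 29.3, and 28.6 FPKM to 55.7, 49.3, and 57.5 FPKM (0.86), and the nucleolar chaperone NOLC1 by 0.39. RRP12 and NOLC1 both lie in stretches of 10q whose genes were higher together, and 3 of the 6 higher genes lie in such stretches. The RNA helicase DDX21 fell by 0.34. Of 27 genes for nucleotide, folate, and polyamine synthesis, 5 were higher (18.5%) and 8 lower (29.6%), or 3 and 5 with only the 6 libraries in the fit, among the lower ones the mitochondrial folate enzyme MTHFD1L (-0.45) and the ribonucleotide reductase subunit RRM2 (-0.38). Of 31 replication and division genes, 5 rose, CCNA2 the most (0.45), and 5 fell, including the helicase subunit MCM6 (-0.35). At 16.1% each way, these shares are those of all tested genes. A fit of only the 6 libraries gave 3 that rose, and GC centring 8 that fell. Without any 1 of the S62A libraries 3 rose, and without the third double mutant library 3 fell.

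Of 81 cytosolic ribosomal protein genes, 20 were higher (24.7%) and 6 lower (7.41%), with a median of 0.13. With only the 6 libraries in the fit, however, 3 were higher and 1 lower, and with GC centring 2 were lower. Likewise the count higher was 8 without the first S62A library and 11 without the first double mutant library, without which 3 were lower. In CYC065 5 were higher and 13 lower (median -0.02), where 19% of all tested genes were higher and 20.3% lower. Of 77 mitochondrial ribosomal protein genes, 29 were higher (37.7%) and 2 lower (2.6%), with a median of 0.17, or 18 and 1 with only the 6 libraries in the fit and 1 lower with GC centring. Of the 29 higher genes, 21 were also higher in CYC065. The lower count ranged from 1 to 4, with 1 without the first S62A or the third double mutant library and 4 without the second S62A library. MRPS24, of the small mitochondrial subunit, rose from 149, 151, and 154 FPKM to 244, 211, and 263 FPKM (0.66). RPS15 (0.66) and MRPL54 (0.67) lie at 19p, where neighbouring genes were higher too.

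The largest differences were in genes of varied function. The actin bundling protein LCP1 (L-plastin; chromosome 13, 46700055 to 46786006, minus strand) was at 1.23, 0.57, and 0.925 FPKM in S62A and at 80.5, 84.9, and 74.7 FPKM in the double mutant. The libraries were far apart, and the difference was 6.37 (SE 0.24, limma adjusted p = 9.33e-16). LCP1 was at a mean of 0.0397 FPKM in WT, 12.6 in T58A, and 1.68 in parental SH-EP. CDC42EP1, an effector of the GTPase CDC42 (chromosome 22, 37956487 to 37965412), rose from 1.46, 0.905, and 1.04 FPKM to 25.3, 24.2, and 28.5 FPKM (4.43, SE 0.36). FGF13, an intracellular member of the fibroblast growth factor family that binds sodium channels and microtubules (chromosome X, 137696888 to 138304939), rose from 1.27, 0.952, and 0.74 FPKM to 15.7, 20.9, and 15.9 FPKM (4.03, SE 0.23). In none of these genes did the lines overlap. HBE1, the embryonic beta-like globin (chromosome 11, 5289575 to 5526882), rose from 2.93, 2.68, and 3.33 FPKM to 31.4, 33.7, and 28.7 FPKM (3.35, SE 0.20). HSPB7, a small heat shock protein (chromosome 1, 16340523 to 16346089), rose from 1.67, 1.88, and 1.43 FPKM to 19, 16.8, and 19 FPKM (3.39, SE 0.13). The proteoglycan CSPG4, also known as NG2 (chromosome 15, 75966663 to 76005189), rose from 1.14, 1.7, and 1.12 FPKM to 15.4, 12.8, and 14.2 FPKM (3.34, SE 0.16). SLIT2, a secreted axon guidance ligand of ROBO receptors (chromosome 4, 20253528 to 20622184), rose from 0.873, 0.902, and 0.795 FPKM to 8.97, 8.06, and 8.46 FPKM (3.17, SE 0.07). For each of these the higher level was that of all 3 double mutant libraries.

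A second set of genes was lower. CGA (chromosome 6, 87795216 to 87804824, minus strand), the alpha subunit shared by the glycoprotein hormones, was at 113, 131, and 117 FPKM in S62A and was listed at 0 in all 3 double mutant libraries (limma adjusted p = 7.57e-12). A value of 0 in a table without counts can be a failed estimate. In CYC065, however, CGA was at 277, 284, and 309 FPKM in S62A and at 0.681, 0.318, and 0.989 FPKM in the double mutant, a difference of -8.68. SCG2, secretogranin II of neuroendocrine granules (chromosome 2, 224461658 to 224467079), fell from 67.5, 73.2, and 69.2 FPKM to 12.7, 12.8, and 11.1 FPKM (-2.51, SE 0.06). ALDH1A1, a retinaldehyde dehydrogenase that makes retinoic acid (chromosome 9, 75515587 to 75695358), fell from 35.3, 34.3, and 39.5 FPKM to 8.54, 7.61, and 8.45 FPKM (-2.14, SE 0.07). The lines did not overlap in either gene. MAGEA11, a cancer-testis antigen and androgen receptor coregulator, fell from 11.9, 13.4, and 12.5 FPKM to 2.27, 2.18, and 2.24 FPKM (-2.44). DIP2C (chromosome 10, 320141 to 735608) fell from 4.53, 6.13, and 4.5 FPKM to 0.689, 0.733, and 0.55 FPKM (-2.76). PMEPA1, a TGF-β target and brake on SMAD signalling, fell from 9.68, 7.65, and 11.2 FPKM to 1.09, 1.05, and 1.21 FPKM (-2.97), at the 20q stretch whose genes were lower together. PMEPA1 was at a mean of 1.61 FPKM in parental SH-EP, 1.94 in WT, and 0.998 in T58A, so S62A stood above the other lines.

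**Figure D1:**
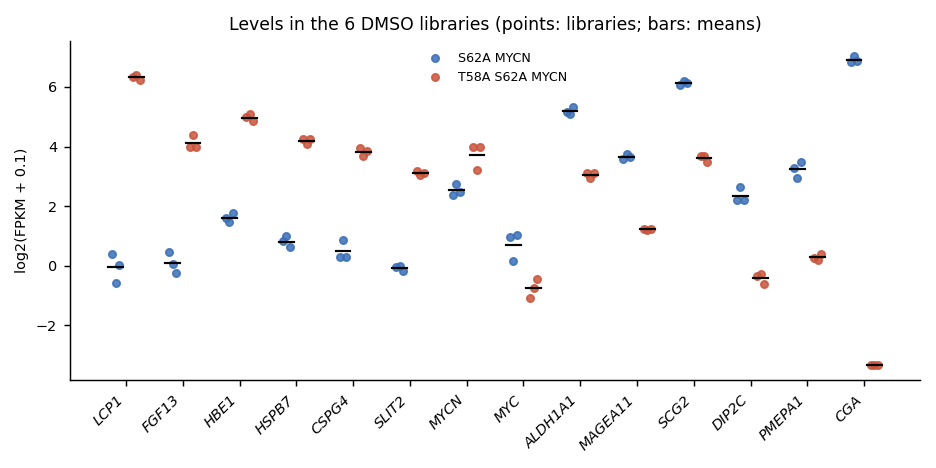
Levels of 14 genes in the 6 DMSO libraries, on the vertical axis as log2(FPKM + 0.1), with 1 point per library and S62A and T58A S62A MYCN in different colours beside each other for each gene on the horizontal axis. LCP1 at 0.57 to 1.23 FPKM against 74.7 to 84.9 FPKM and CGA at 113 to 131 FPKM against 0 were the widest apart, while the MYCN libraries at 5.08 to 6.59 FPKM and 9.06 to 15.7 FPKM came nearest to each other.

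The remaining genes with the largest differences were as follows. Higher were PDLIM1, an actin and alpha-actinin binding protein (4.61, in a higher stretch of 10q), the intestinal protease TMPRSS15 (4.23), the RAS-related GTPase RRAD (4.02), the homeobox factor DLX4 (3.23), the secreted protein DMKN (3.20), and the corepressor RCOR2 (3.17). Lower were the tetraspanin CD82 (-2.23), the aldo-keto reductase AKR1C3 (-2.16), which has close paralogs that can share its reads, the kinase-dead ephrin receptor EPHB6 (-2.16), and the chemoattractant RARRES2 (-2.27). RARRES2 lost its call without the first S62A library (-2.19) or without the first or the second double mutant library (-2.23 and -1.59). The tubulin gene TUBA1C, chosen after its values were seen, rose from 27.5, 33.5, and 24.8 FPKM to 239, 227, and 251 FPKM (3.07). Its close paralogs can share its reads.

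The rule also named 7 genes for which the values of the 3 libraries of a line were unlike each other. The small nucleolar RNA SNORD15B was listed at 0 in all S62A libraries and at 17.7, 59.6, and 12.4 FPKM in the double mutant, and SNORA76C was at 25.1, 0, and 20.9 FPKM against 133, 149, and 70.3 FPKM. SNORA5C was at 44.8, 23.3, and 36.7 FPKM against 0 in all double mutant libraries. SNORA64 (-6.77), SNORA25 (-5.79), SCHIP1 (-4.20), and the histone gene HIST2H2AC (-2.99) were lower with libraries at or near 0. None of the 7 was called in CYC065, where the values of SNORD15B (-3.16), SNORA5C (0.34), SNORA64 (0.55), SNORA25 (1.08), and SCHIP1 (0.70) had the opposite sign. SNORA76C (1.85) and HIST2H2AC (-0.57) kept theirs. SNORA5C lost its call without any 1 library (-8.67 to -8.20). SNORD15B lost it without any library but the third double mutant one (7.22 to 8.09), and SNORA25 likewise (-6.06 to -4.54). SNORA64 lost its call without the third S62A library (-6.33) or without the first or the second double mutant library (-5.37 each), SCHIP1 without either of those double mutant libraries (-3.55 each), and HIST2H2AC without the second or the third S62A library (-2.63 and -2.76) or the second double mutant library (-1.56). Of 330 tested small RNA and histone genes, 11 were higher and 6 lower, or 5.15% called, against 30.7% of all tested genes. Of these, 5 (29.4%) were called in the same direction in CYC065, against 72.5% of all higher and 71.6% of all lower genes. Small RNAs are not captured evenly by poly(A) selection.

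Among lists with at least 9 tested genes, the extracellular matrix had the largest share of calls. Of 30 tested genes, 10 were higher (33.3%) and 16 lower (53.3%), with a median of -0.32. Periostin, POSTN (chromosome 13, 38136720 to 38172981), fell from 232, 242, and 212 FPKM to 76.6, 90, and 77.1 FPKM (-1.49, SE 0.08). The proteoglycan versican, VCAN (chromosome 5, 82767437 to 82878122), fell from 21.9, 20.5, and 19.2 FPKM to 8.72, 9.24, and 7.81 FPKM (-1.25, SE 0.10). The metalloproteinase inhibitor TIMP2 (-0.92) and the small proteoglycan decorin, DCN (-0.93), fell as well. The other small proteoglycan biglycan, BGN (chromosome X, 152760438 to 152775004), rose from 19.7, 20, and 19.6 FPKM to 67.2, 54.4, and 55.2 FPKM (1.56, SE 0.08), with THBS2 (0.78) and the collagen COL6A2 (0.54). Structural proteins and proteoglycans thus stood on both sides. The 10 higher genes were also higher, and 15 of the 16 lower genes also lower, in CYC065.

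Targets of YAP and contractile genes were mostly higher, at 8 higher (53.3%) and 3 lower (20%) of 15, with a median of 0.20, and 5 were lower with GC centring. The smooth muscle protein TAGLN rose from 6.23, 4.87, and 7.39 FPKM to 15.4, 12.1, and 16.5 FPKM (1.25), and smooth muscle actin, ACTA2, from 18.1, 21.8, and 18.3 FPKM to 34.9, 34.5, and 34.8 FPKM (0.84). TAGLN lies in a stretch of 11q whose genes were higher together. By position ACTA2 lies at the end of a stretch of 10q whose genes were lower. It is not counted among the genes of that stretch, of which 0 were higher by limma at an adjusted p under 0.05. Outside such stretches were CYR61, from 152, 150, and 149 FPKM to 228, 222, and 215 FPKM (0.56), ANKRD1 (0.57), and CTGF (0.51), the genes most used as YAP readouts. The libraries did not overlap in any of them. In CYC065 3 of the 15 were higher and 4 lower, against 19% and 20.3% of all tested genes. CYR61 (0.09) and ANKRD1 (0.13) were not called there. TGFB2, a ligand of the TGF-β pathway whose promoter holds the E-box, was chosen after its values were seen. It rose from 3.1, 3.73, and 2.86 FPKM to 12.8, 12.5, and 11.4 FPKM (1.89).

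Immediate early genes and feedback regulators of the MAPK pathway were more often lower, with 13 lower (44.8%) and 5 higher (17.2%) of 29 and a median of -0.17, or 8 and 3 with only the 6 libraries in the fit. The count lower was 8 without the first S62A library, and the count higher was 8 without the second double mutant library. The ERK phosphatase DUSP4 fell from 11.1, 11.2, and 12.7 FPKM to 5.32, 4.22, and 4.92 FPKM (-1.26), and PHLDA1 from 62.4, 59.8, and 59.3 FPKM to 32.1, 31.3, and 30.1 FPKM (-0.96). The transcription factors EGR1 (-0.72) and FOS (-0.67) fell too, whereas the AP-1 subunit JUNB rose by 0.56. The stress-induced survival gene IER3 rose from 1.57, 0.263, and 1.03 FPKM to 5.12, 3.83, and 5.18 FPKM (2.43).

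Of 23 tested genes of the interferon response and MHC class I presentation, 7 were higher (30.4%) and 2 lower (8.7%), with a median of 0.30. The lower count was 4 with GC centring, 1 without the second S62A or the second double mutant library, and 4 without the first double mutant library. BST2 (tetherin), which holds budding virus at the membrane, rose from 1.4, 2.18, and 2.37 FPKM to 9.19, 6.56, and 7.71 FPKM (1.95), and IFI35 rose by 1.62. The immunoproteasome subunits PSMB9, from 2.8, 4.04, and 2.92 FPKM to 8.23, 6.7, and 10.2 FPKM (1.33), and PSMB8 (0.54) rose with the peptide transporter TAP1 (0.73). All 7 higher genes were also higher in CYC065. Of 18 NF-κB targets and cytokines, 7 were higher (38.9%) and 2 lower (11.1%), with a median of 0.29. The lower count was 1 with only the 6 libraries in the fit, with GC centring, and when any of 4 libraries was left out, the first or the third S62A or the second or the third double mutant library. The adhesion molecule ICAM1 rose from 0.0268, 0.0448, and 0.106 FPKM to 0.983, 0.752, and 0.752 FPKM (2.57), below 1 FPKM in each library. ICAM1 was thus tested only through its level in other groups. Its S62A values of 0.0268 and 0.0448 FPKM are below the pseudocount of 0.1, on which the size of the difference depends. The apoptosis inhibitor BIRC3 (1.09, on 11q) and the NF-κB subunit NFKB1 (0.52, on 4q) rose in shifted stretches. In CYC065, 15 of the 18 were higher and 0 lower by limma at an adjusted p under 0.05, with a median of 1.08. Of all tested genes, 19% were higher and 20.3% lower in CYC065.

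**Figure D2:**
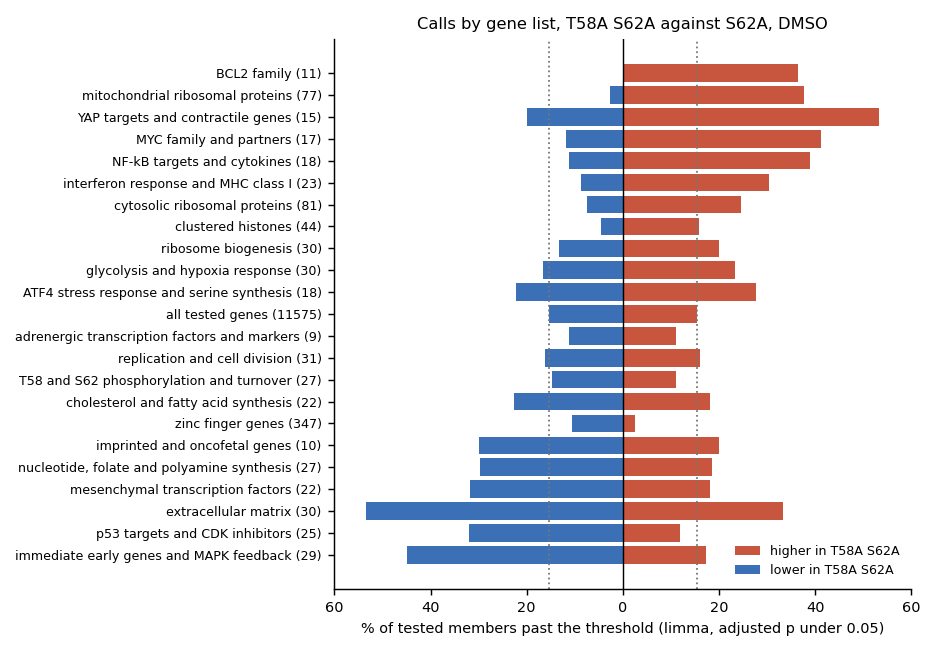
Share of the tested members of each gene list past the threshold (limma, adjusted p under 0.05), with the share higher in the double mutant to the right and lower to the left and the number of tested members in parentheses. Dotted lines mark the shares among all tested genes, 15.4% higher and 15.3% lower, and the extracellular matrix list had calls on both sides, 10 higher and 16 lower of 30.

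The mesenchymal identity of the cells was checked on markers. Of 6 mesenchymal NB markers, all were tested, 4 were lower (66.7%) and 1 was higher (16.7%), against 15.3% and 15.4% of all tested genes. With only the 6 libraries in the fit, 0 were higher. CD44 fell from 247, 252, and 257 FPKM to 168, 158, and 147 FPKM (-0.68), PRRX1, a transcription factor that drives the mesenchymal state, from 56.2, 57.1, and 55.5 FPKM to 39.5, 39.6, and 34 FPKM (-0.58), and FN1 by 0.35, whereas YAP1 on 11q was higher (0.35). The summed level of the 6 was 1865 to 1933 FPKM in S62A and 1564 to 1631 FPKM in the double mutant. The defining adrenergic genes PHOX2A and DBH were listed at 0 in all 6 libraries, and the adrenergic markers summed to 18.3 to 19.8 FPKM against 16.1 to 19.6 FPKM. Of 22 mesenchymal transcription factors, 4 were higher (18.2%), with TWIST1 (21.2, 19.8, and 21.7 FPKM against 37.9, 35.4, and 36.6 FPKM) at 0.81, and 7 lower (31.8%), with TEAD1 at -0.59. The higher count was 2 without the second double mutant library and 1 with only the 6 libraries in the fit. Of 27 adrenergic factors and markers 9 were tested, of which HAND2 rose (0.81, on 4q) and GATA3 fell (-0.88), 11.1% each way, and 3 were lower with GC centring. Without the second S62A library, or the second or the third double mutant library, 2 were lower.

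Markers of other cell types were low. The 5 haematopoietic markers summed to at most 0.475 FPKM and the 5 endothelial ones to at most 0.201 FPKM in any of the 6 libraries, with 3 of each at 0 throughout. The 5 epithelial markers summed to 2.91 to 3.57 FPKM in S62A and 1.16 to 1.58 FPKM in the double mutant, nearly all from KRT19, a keratin that fell by 1.29. The 6 Schwann cell and melanocyte markers summed to 3.79 to 5.26 FPKM and 5.57 to 6.38 FPKM, with SOX10 at 0 and MITF, the melanocyte factor, higher by 0.72. S100B, a glial calcium-binding protein, was lower (-1.88), and its call was lost without any of the S62A libraries but the first and without either of the first 2 double mutant libraries, leaving 0 lower.

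Of 22 genes for cholesterol and fatty acid synthesis, 4 were higher (18.2%) and 5 lower (22.7%), near the background of 15.4% and 15.3%. The lower count was 2 without the first S62A library, and 3 without the third or with only the 6 libraries in the fit. The regulator SREBF1 rose from 7.52, 6.8, and 7.28 FPKM to 14.1, 10.4, and 14.1 FPKM (0.82), the desaturase SCD from 67.6, 71, and 70.3 FPKM to 120, 120, and 110 FPKM (0.74), and FDPS, in a shifted stretch of 1q, by 0.47. Of 18 genes of the ATF4 stress response and serine synthesis, 5 were higher (27.8%), with the glutamine carrier SLC1A5 at 0.33, and 4 lower (22.2%). These were 3 and 2 without the first S62A library, and the higher count was 3 with only the 6 libraries in the fit and 2 with GC centring, in which SLC1A5 lost its call. PHGDH, the first enzyme of serine synthesis, fell from 58.1, 62.2, and 62.2 FPKM to 33.3, 36.1, and 32.1 FPKM (-0.85). PHGDH lies in the stretch of chromosome 1 with the largest shift. Of 30 genes of glycolysis and the hypoxia response, 7 were higher (23.3%), including the glucose carrier SLC2A3 (1.27), and 5 lower (16.7%). A fit of only the 6 libraries gave 4 higher, and GC centring 9 lower. Of 10 imprinted and oncofetal genes, 2 were higher (20%) and 3 lower (30%), and 1 was lower without the second S62A library. Those higher were the neighbours H19, a noncoding RNA, from 283, 281, and 302 FPKM to 650, 542, and 653 FPKM (1.09), and IGF2, a growth factor (0.90).

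Of 25 p53 targets and CDK inhibitors, 3 were higher (12%) and 8 lower (32%), with a median of -0.17. In CYC065 7 were higher and 5 lower (median 0.07), where 19% of all tested genes were higher and 20.3% lower. Of the 8 genes lower in DMSO, 2 were also lower there, against 71.6% of all lower genes. The higher count was 1 without the second S62A library, the lower count 5 without the first double mutant library, and a fit of only the 6 libraries gave 1 and 5. The death receptor TNFRSF10B was higher by 0.46. Lower were the death receptor FAS, from 17.9, 21.4, and 18.4 FPKM to 15.3, 14.2, and 12.8 FPKM (-0.44), and the DNA damage binding protein DDB2, from 21.5, 24.5, and 21.3 FPKM to 20.3, 13.5, and 15 FPKM (-0.48). The lines did not overlap in either, and DDB2 lost its call without the second double mutant library (-0.36). The CDK inhibitor CDKN1A was at 85.5, 87.1, and 88.5 FPKM against 83.9, 81.2, and 84.5 FPKM (-0.06, limma adjusted p = 0.361).

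Of 11 members of the BCL2 family, which governs mitochondrial cell death, 4 were higher (36.4%) and 0 lower by limma at an adjusted p under 0.05, and 1 was higher with only the 6 libraries in the fit. All 4 promote cell death, and BBC3 is also counted in the list of p53 targets. BBC3 (PUMA) rose from 4.42, 3.44, and 5.14 FPKM to 6.37, 6.21, and 7.95 FPKM (0.66), BAX by 0.34, BAD by 0.38, and BID by 0.25. BBC3 lost its call without the second S62A library (0.50) or the third double mutant library (0.55), and BAX without the second S62A library (0.28) or the first double mutant library (0.25). BAD lost its call without the first or the third S62A library (0.36 and 0.30) or the third double mutant library (0.28), and with GC centring (0.13). BID kept its call when any 1 library was left out. The BH3-only protein BCL2L11, at 4.11, 3.21, and 3.2 FPKM against 2.59, 2.97, and 2.23 FPKM, had a difference of -0.42 (limma adjusted p = 0.355).

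Of 347 zinc finger genes, 9 were higher (2.59%) and 37 lower (10.7%), both shares below those of all tested genes, with a median of -0.08, and 17 were higher without the second double mutant library.

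The same pair of lines was compared in a further 6 libraries, those treated with CYC065. There 4550 genes (39.3%) passed, 2202 (19%) higher and 2348 (20.3%) lower. Of the 1778 genes higher in DMSO, 1289 were also higher in CYC065 (72.5% of these and 58.5% of those higher in CYC065), and 8 were lower. Of the 1772 lower in DMSO, 1269 were also lower (71.6% and 54%), and 23 were higher. The sign was the same for 95.3% and 92.1%. These libraries are separate from the DMSO ones but come from the same lines, so they do not bear on differences between lines that have a source other than T58A. LCP1 (6.21), FGF13 (4.09), SLIT2 (3.44), SCG2 (-2.89), and MYCN (1.45) differed in CYC065 about as in DMSO.

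**Figure D3:**
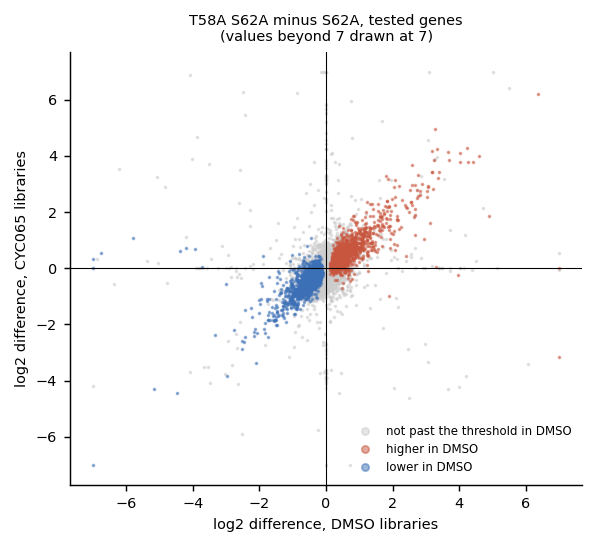
Log2 difference of the double mutant minus S62A for the 11575 tested genes, in DMSO on the horizontal axis and in CYC065 on the vertical axis, clipped at 7 either way and coloured by the call in DMSO. Genes higher in DMSO lie mostly above 0 in CYC065 (95.3%), and genes lower in DMSO mostly below it (92.1%).

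Whether T58A was accompanied by the same differences without S62A was asked with T58A minus WT, the other pair of lines that differs by T58A, and tested as an interaction. The T58A difference with S62A differed from that without it in 2228 genes (19.2%), higher in 1199 (10.4%) and lower in 1029 (8.89%). Of the 1778 genes higher in the double mutant than in S62A, 64.7% had a positive T58A minus WT value, and 71.3% of the 1772 lower genes had a negative one. LCP1 was higher in both pairs (6.37 and 6.51), but its WT level of 0.0397 FPKM is below the pseudocount. Its interaction of -0.15 (limma adjusted p = 0.816) therefore depends on that choice, and was 1.71 with a pseudocount of 1 and -1.55 with 0.01. MAGEA11 was lower in both pairs (-2.44 each, interaction -0.01, limma adjusted p = 0.995). CDC42EP1 (4.43 against -0.78), FGF13 (4.03 against -1.54), and HBE1 (3.35 against 0.06) had interactions of 5.20, 5.57, and 3.29, past the threshold. In those genes S62A stood below the other MYCN lines. HBE1, for example, was at a mean of 13.4 FPKM in WT and 13.9 in T58A, against 2.68 to 3.33 FPKM in the S62A libraries. Of 30 ribosome biogenesis genes, 13 were higher and 0 lower in the interaction by limma at an adjusted p under 0.05. Of 18 genes of the ATF4 list, 0 were higher and 10 lower. All tested genes stood at 10.4% and 8.89%. The medians of these 2 lists were -0.13 and 0.30 in T58A minus WT, against 0.10 and -0.03 in double mutant minus S62A. Other lists had such counts too, with 24 and 0 of 81 cytosolic and 28 and 1 of 77 mitochondrial ribosomal protein genes, and 1 and 8 of 25 p53 targets and CDK inhibitors. PRRX1 (interaction -1.39) and VCAN (-1.67) had T58A minus WT values of 0.81 and 0.43.

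**Figure D4:**
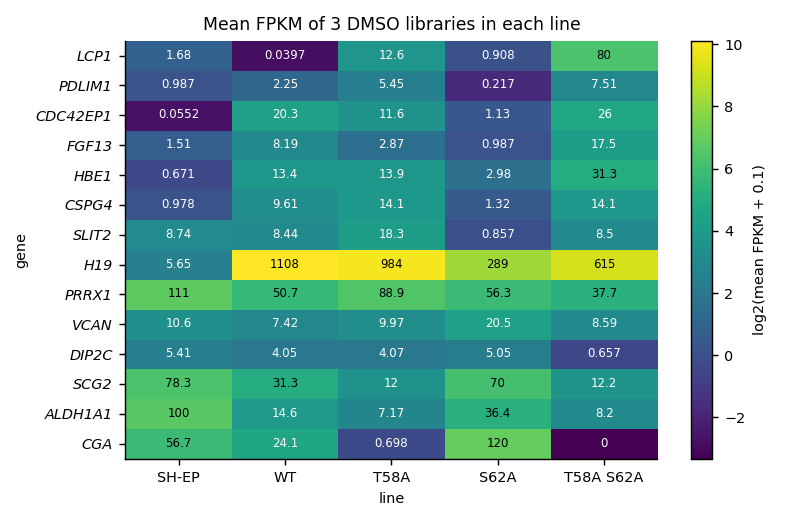
Mean FPKM of the 3 DMSO libraries of each of the 5 lines for 14 genes, with lines in columns, genes in rows, and the colour giving log2(mean FPKM + 0.1). LCP1 was at 0.0397 FPKM in WT and 12.6 FPKM in T58A, whereas HBE1 was at 13.4 and 13.9 FPKM in those lines and CGA at 24.1 and 0.698 FPKM.

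Along each chromosome, 405 windows of mostly 20 neighbouring genes (10 to 27 at chromosome ends), counting genes at 5 FPKM or more on average, had medians of -0.98 to 0.59, and 28 windows had a median of at least 0.3 in size, 21 higher and 7 lower. These formed 15 stretches with 758 tested genes. Of these genes 60.8% were called, against 28.6% elsewhere, a difference that the choice of windows by the same values sets. All 28 had the same sign in CYC065. The largest shift was on chromosome 1 between 113454469 and 145076227 (GRCh37), with a median of -0.98 and 16 of 20 genes lower. Against parental SH-EP, this stretch was at -0.88 in the double mutant and 0.04 in S62A. The stretch of 20q from 48599517 to 62153559 had a median of -0.53, with 30 of 40 genes lower and 1 higher, and stood at 0.61 in S62A and 0.13 in the double mutant against parental SH-EP. On 11q, from 94695785 to 134135749, 66 of 99 genes were higher and 2 lower (median 0.35), with S62A at -0.31 and the double mutant at -0.01 against parental SH-EP. On 10q, 53 of 79 genes between 103541082 and 135236024 were higher and 0 lower by limma at an adjusted p under 0.05 (median 0.36), whereas nearer to the centromere 14 of 20 between 70939990 and 75004262 were lower (-0.47). On 19p, 60 of 80 genes between 281040 and 4502220 were higher (0.49). DNA copy number was not analysed here. Outside the 15 stretches, a choice made after seeing the data, 1435 genes were higher and 1654 lower.

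**Figure D5:**
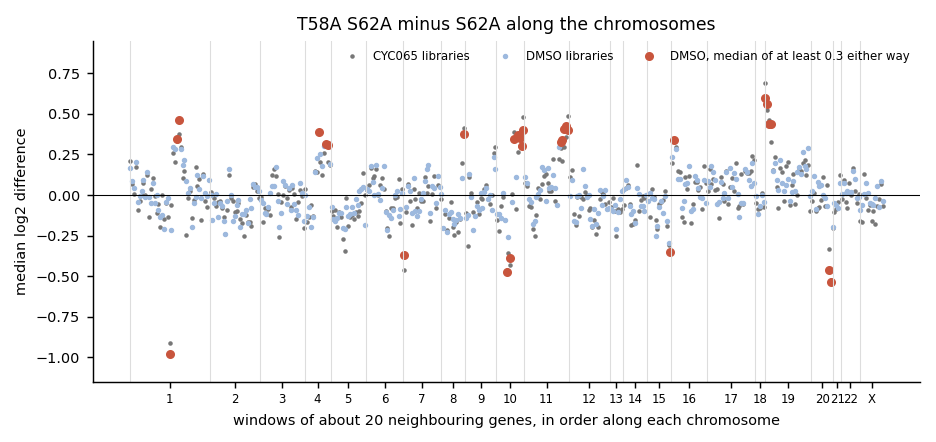
Median log2 difference of the double mutant minus S62A in each of 405 windows of mostly 20 neighbouring genes, in order along the chromosomes, for the DMSO and the CYC065 libraries. The 28 windows with a DMSO median of at least 0.3 either way are drawn larger, and they reach from -0.98 on chromosome 1 to 0.59 on chromosome 19.

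Calls also moved with base composition. In the fifth of genes with the lowest GC content of transcripts (median 37.9%), the median difference was -0.11, with 8.57% higher and 23.4% lower. In the fifth with the highest (61.2%), it was 0.15, with 24.2% higher and 7.51% lower. The medians in CYC065 were -0.11 and 0.15. The part of GC in the results was not tested beyond centring within 20 bins of GC content, a choice made after seeing the data, which gave 1771 genes higher and 1927 lower. It reduced the median of the 19p stretch from 0.49 to 0.30 and left that of chromosome 1 at -0.98.

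The E-box stood in the promoters of 14.55% of the higher genes (197 of 1354 with a RefSeq promoter) and 8.394% of the lower genes (116 of 1382). It stood in 10.2% of genes not called, 10.59% of all tested genes, and 7.435% of all 27305 promoters. Promoters of the higher, lower, and not called genes had median GC contents of 64.67%, 67%, and 65%. In the same order, the CRE stood in 3.471%, 2.533%, and 3.678%, against 3.461% of tested genes and 1.978% of all promoters. The AP-1 site stood in 5.908%, 4.848%, and 4.018%, against 4.449% of tested genes and 7.764% of all promoters. Of the 30 genes with the largest differences, 19 had a promoter, and matches stood in 2 of them, the CREs of CGA and an AP-1 site of TMPRSS15. DUSP23, a phosphatase whose E-box is shown above, was at 1.36, 0.284, and 1.56 FPKM against 5.1, 4.45, and 9.97 FPKM (2.67, SE 0.41). The libraries of the lines did not overlap.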

How the data were processed

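RNA-Seq of SH-EP lines was analysed at the level of genes. Per the labels and the study's methods, ERCC spike-ins went in according to cell number, and directional libraries were made from poly(A) RNA. The authors used HISAT2 for alignment to hg19/GRCh37 and Cufflinks for FPKM. The deposited FPKM carry no spike-in scaling and cover 26228 genes and 92 spike-ins, with 0 columns of other samples. Since FPKM hold no counts, no count test was used and counting error is unknown.

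Groups came from the sample labels. A gene was tested if its mean was 1 FPKM or more, which 11575 genes were. The test was that of limma 3.58.1 (R 4.3.3) after log2 transformation with a pseudocount of 0.1, with all 10 groups in the fit (eBayes, trend), Benjamini-Hochberg adjustment over all tested genes, and a threshold of 0.05. The contrasts were double mutant minus S62A in DMSO and in CYC065, T58A minus WT, and the interaction. Relative depth was the most frequent ratio to the first S62A library among genes at low FPKM above 0 in both libraries. The script was tested on simulated data.

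Genes named were a fixed set of MYCN-related genes, the 15 higher and 15 lower genes with the largest change among those past the threshold, not overlapping between lines, and at 5 FPKM or more in the higher line, and up to 4 members of each list, of which some are printed. Several genes were left out of the text. Members and lists were chosen with earlier results of these data known. Positions are those of GRCh37 in the lifted GENCODE annotation, which has 97.8% of tested genes. Promoters are those of RefSeq (GRCh38.p14), matched by symbol for 8609 of the 11575 tested genes.

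Alternatives tried were spike-in scaling on 55 spike-ins, pseudocounts of 0.01 and 1, a filter at 5 FPKM and none, libraries centred on their median, fits of fewer libraries, a 1.5-fold limit, and leaving out each library. Exclusion of shifted stretches, GC centring, and a block on the column number were added after seeing the data.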

Additional observations from a re-analysis of the deposited data

Results flagged for a closer look

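A limma test of the interaction gave 1199 genes in which the double mutant minus S62A difference was higher than the T58A minus WT difference, and 1029 genes in which it was lower. The 4 lines also differ in MYCN mRNA, which cannot be told apart from the substitutions. Among the 30 genes with the largest differences, 19 passed this test of the difference between backgrounds, against 19.2% of all tested genes. Those 30 were chosen by the double mutant minus S62A difference, which is itself part of the interaction, so the choice favours passing. The value given for each is the difference of double mutant minus S62A less that of T58A minus WT, on the log2 scale.

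Among genes higher in the double mutant, the interaction was 3.36 for PDLIM1, 5.20 for CDC42EP1, 5.57 for FGF13, 2.21 for RRAD, 2.17 for HSPB7, 3.29 for HBE1, 2.79 for CSPG4, 3.91 for DMKN, 1.96 for RCOR2, and 2.06 for SLIT2. Among genes lower in the double mutant, it was -4.66 for CGA, -2.05 for PMEPA1, -2.76 for DIP2C, -1.13 for SCG2, -1.73 for CD82, -1.66 for AKR1C3, -1.51 for EPHB6, and -1.12 for ALDH1A1. It was -11.24 for the small nucleolar RNA SNORA25, which was listed at 0 in 2 of the double mutant libraries and whose call in the double mutant against S62A did not hold when any library but the third double mutant one was left out. PDLIM1 and PMEPA1 lie in stretches whose genes shifted together.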

How the results depend on the processing

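With spike-in scaling, 10502 genes were called in DMSO (10452 higher, 50 lower), 10793 in CYC065 (10774 and 19), and 7125 in the interaction (7097 and 28). Genes lower as deposited then had positive values: MXD1 0.18, AURKA 0.28, DDX21 0.78, MTHFD1L 0.67, RRM2 0.74, MCM6 0.77, TEAD1 0.53, PRRX1 0.54, GATA3 0.23, PHLDA1 0.16, PHGDH 0.27, CD44 0.44, FN1 0.76, DCN 0.14, EGR1 0.40, FOS 0.45, DDB2 0.63, FAS 0.67, and TIMP2 0.20. By construction, a fit of only the libraries compared has fewer samples. It called 2179 genes in DMSO (1120 and 1059) and 1439 in the interaction, 738 of them higher. A limit of 1.5-fold left 1120 genes in DMSO (632 and 488), 1515 in CYC065 (824 and 691), and 935 in the interaction (530 and 405). With 1 library left out, calls ranged from 2982 to 3755 in DMSO, from 3902 to 4176 in CYC065, and from 1724 to 2577 in the interaction, and the MYCN difference from 1.05 to 1.45. The pseudocounts, filters, median centring, GC centring, and exclusion of shifted stretches kept these counts within 1.5 times. Of 108 named genes, 13 lost their call with only the 6 libraries in the fit. The columns are numbered, but not as in the labels. A replicate block on that number, added after seeing the data, gave 3536 genes in DMSO, 4535 in CYC065, and 2208 in the interaction, and of the named genes HIST2H2AC lost its call. Deviations of same-numbered S62A and double mutant libraries correlated at 0.053, 0.025, and 0.161, so the number was not taken to pair libraries. FPKM hold no depth, so low genes have an unknown counting error, and 3 libraries per line limit the precision.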
